A study of Mus musculus with 4 samples.

Results

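MHC class I molecules display peptides from inside the cell on its surface, and the genes described here encode 5 class I heavy chains, their common partner and the regulator of their transcription. The genes were H2-K1, H2-D1, H2-T23, H2-M3, H2-Q7, B2m and Nlrc5. They were followed on Affymetrix expression arrays of immortalized mouse brown preadipocytes, cells that can become brown fat, from mice of a mixed C57/BL6-129 strain. Members were all probe sets, the sets of short oligonucleotides that each measure a transcript, whose platform annotation names at least 1 of the 7 genes. Of the 45101 probe sets on the array, 23 met this rule. Among them, 17 name 1 gene, of which 9 are for H2-D1, 4 for H2-K1, 2 for B2m and 1 each for H2-M3 and Nlrc5. The other 6 name several genes, and H2-T23 and H2-Q7 are measured only by such shared probe sets, which are kept apart below.

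All cells carried floxed alleles of G9a, the histone H3 lysine 9 methyltransferase encoded by Ehmt2. The control group was treated with the vector and is labelled wild type, although its cells are floxed too, and the knockout group was treated with Cre recombinase. There were 2 arrays per group, which the labels number 1 and 2 without saying whether they came from separate cultures or giving the age or sex of the animals. P-values therefore measure the spread between these arrays, and their number limits the precision of every value.

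Classical class I molecules, H2-K1 and H2-D1 in the mouse, present peptides to CD8+ T cells. The non-classical molecules H2-T23 (Qa-1), H2-M3 and H2-Q7 (Qa-2) present narrower sets of ligands, H2-T23 to natural killer cell receptors and H2-M3 formylated peptides. A heavy chain reaches the surface stably only with beta-2 microglobulin, the product of B2m. NLRC5 is a nuclear regulator that acts at class I promoters through a group of short sequence boxes called S, X and Y, and interferons raise its expression and that of class I genes. Fibroblast-like cells carry class I molecules at a modest level and raise it after interferon.

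The RefSeq promoter table held a promoter for 6 of the 7 genes. The stretches below run from 10 bases before the first to 10 bases after the last match of 5 letter strings, and they are shown because the class I promoters share most of these strings. Capitals mark the matches, on either strand. GATTCCC is the core of enhancer A that NF-kappa B proteins bind. TTTCNNTTC and TTTCNNTTT, which differ only in the last letter, are 2 forms of the interferon-stimulated response element. TGNTGACG covers part of the X box, and CCAAT is the Y box. The sequences are RefSeq's, in build GRCm38.p6, each written along the strand of its gene.
H2-K1 (chr17:34000325-34000465, minus strand): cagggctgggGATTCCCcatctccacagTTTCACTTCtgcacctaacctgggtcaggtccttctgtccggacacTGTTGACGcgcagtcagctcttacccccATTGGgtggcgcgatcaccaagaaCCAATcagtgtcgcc
H2-D1 (chr17:35262916-35263055, plus strand): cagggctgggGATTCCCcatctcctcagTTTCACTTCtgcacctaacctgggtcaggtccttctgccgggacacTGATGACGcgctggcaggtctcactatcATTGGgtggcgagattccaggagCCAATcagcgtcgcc
H2-Q7 (chr17:35439015-35439153, plus strand): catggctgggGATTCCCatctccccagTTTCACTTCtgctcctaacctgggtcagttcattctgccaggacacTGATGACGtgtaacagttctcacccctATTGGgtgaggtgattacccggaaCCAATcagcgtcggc
H2-M3 (chr17:37270095-37270227, plus strand): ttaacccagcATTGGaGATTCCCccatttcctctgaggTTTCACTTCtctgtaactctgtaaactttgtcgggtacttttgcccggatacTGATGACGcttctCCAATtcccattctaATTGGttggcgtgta
B2m (chr2:122147539-122147648, plus strand): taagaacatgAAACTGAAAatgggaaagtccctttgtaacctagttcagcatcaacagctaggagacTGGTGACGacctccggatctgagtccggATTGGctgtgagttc
H2-T23 (chr17:36032739-36032835, minus strand): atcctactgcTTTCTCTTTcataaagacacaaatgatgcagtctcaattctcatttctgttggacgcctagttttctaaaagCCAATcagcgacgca

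The strings were chosen from the known boxes with these promoters in view, so their presence in the members is a description. TGNTGACG occurs in 5 of the 6 member promoters and in 2.26% of all 32851 promoters in the table, which hold 250 bases before the gene start and 50 after it. GATTCCC occurs in 4 member promoters and in 3.36% of all. The form TTTCNNTTC occurs in 4 and in 7.52% of all, and the form TTTCNNTTT in B2m and H2-T23 and in 10.6% of all. CCAAT, a short string, occurs in all 6 and in 37.4% of all promoters. GATTCCC, TTTCNNTTC, TGNTGACG and CCAAT stand together in 5 promoters of the table, and these belong to H2-K1 (with 2 starts), H2-D1, H2-M3 and H2-Q7. Counted from the gene start, the match of TGNTGACG begins at position -104 in H2-D1, -81 in B2m, -67 in H2-Q7, -49 in H2-M3 and -44 in H2-K1. No match says only that these letters are not in this window.

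**Figure D1:**
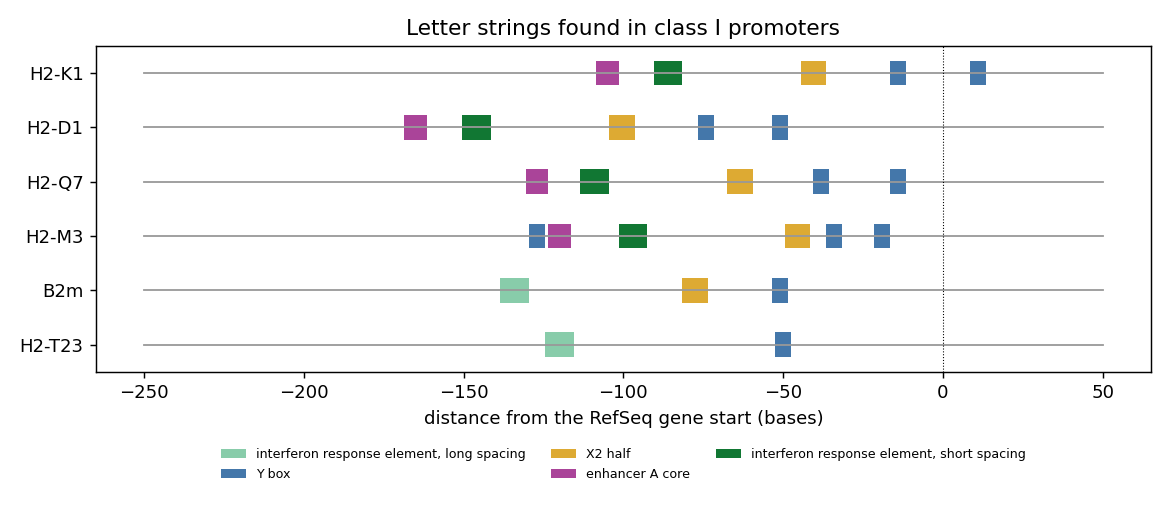
Positions of the matched letter strings in the 6 member promoters. The legend calls TTTCNNTTC the short and TTTCNNTTT the long spacing, but both have the same gap and differ only in the last letter. The x axis is the distance from the RefSeq gene start in bases, each line is 1 promoter from 250 bases before to 50 bases after the start, and coloured blocks are matches on either strand; the 4 promoters at the top carry enhancer A, response element, X and Y strings, while B2m lacks the enhancer A string and H2-T23 lacks both that and the X string.

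The deposited value is a MAS5 signal per probe set and array, on a linear scale. The median signal of an array lay between 50.6 and 78 units. Differences are knockout minus control of quantile-normalized log2(signal + 16), a scale that understates the change of dim genes. Of the 45037 probe sets without array controls, 22519 at or above the 50th percentile of mean level were tested with limma, and a call needed a Benjamini-Hochberg adjusted p under 0.05 over all of them. An unpaired model was used, and a paired one with the replicate number as a block. Ehmt2 itself, on its brighter probe set, read 2682 and 2688 units with the vector and 953 and 912 with Cre. The log2 difference was -1.49 ± 0.20 (SE here and below; n = 2 arrays in each group), with limma adjusted p-values of 0.227 unpaired and 0.000281 paired. Bulk RNA cannot tell fewer cells of a type from less RNA per cell.

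Class I heavy chain, B2m and Nlrc5 probe sets were mostly brighter in the knockout. Of the 23 probe sets, 14 passed the level filter, 12 of them for 1 gene and 2 shared. Among the 14, 4 are for H2-K1, 4 for H2-D1 and 1 for both, all read on the same arrays. The 14 are thus not independent of each other. The filter used the mean over all 4 arrays, so a probe set bright only in the knockout could pass it, and the counts over those 14 are descriptions. Their lowest mean over the controls was 6.35 on the log2 scale, against a filter level of 6.26. All 14 had a positive difference within both replicate numbers, as did 27.9% of all tested probe sets. In 13 of the 14 both knockout arrays lay above both controls, which held for 14.2% of all tested probe sets. None of the 14 passed the unpaired model (limma adjusted p from 0.219 to 0.999), in which 0.00888% of probe sets were called higher. At an unadjusted p under 0.05, 11 of the 14 were higher, against 2.71% of all tested probe sets. In the paired model 11 of the 14 rose, where 2.29% of all tested probe sets did, and 0 fell, where 0.853% did. That model has 1 residual degree of freedom, beside 9.8 prior ones that limma takes from the spread over all tested probe sets.

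**Figure D2:**
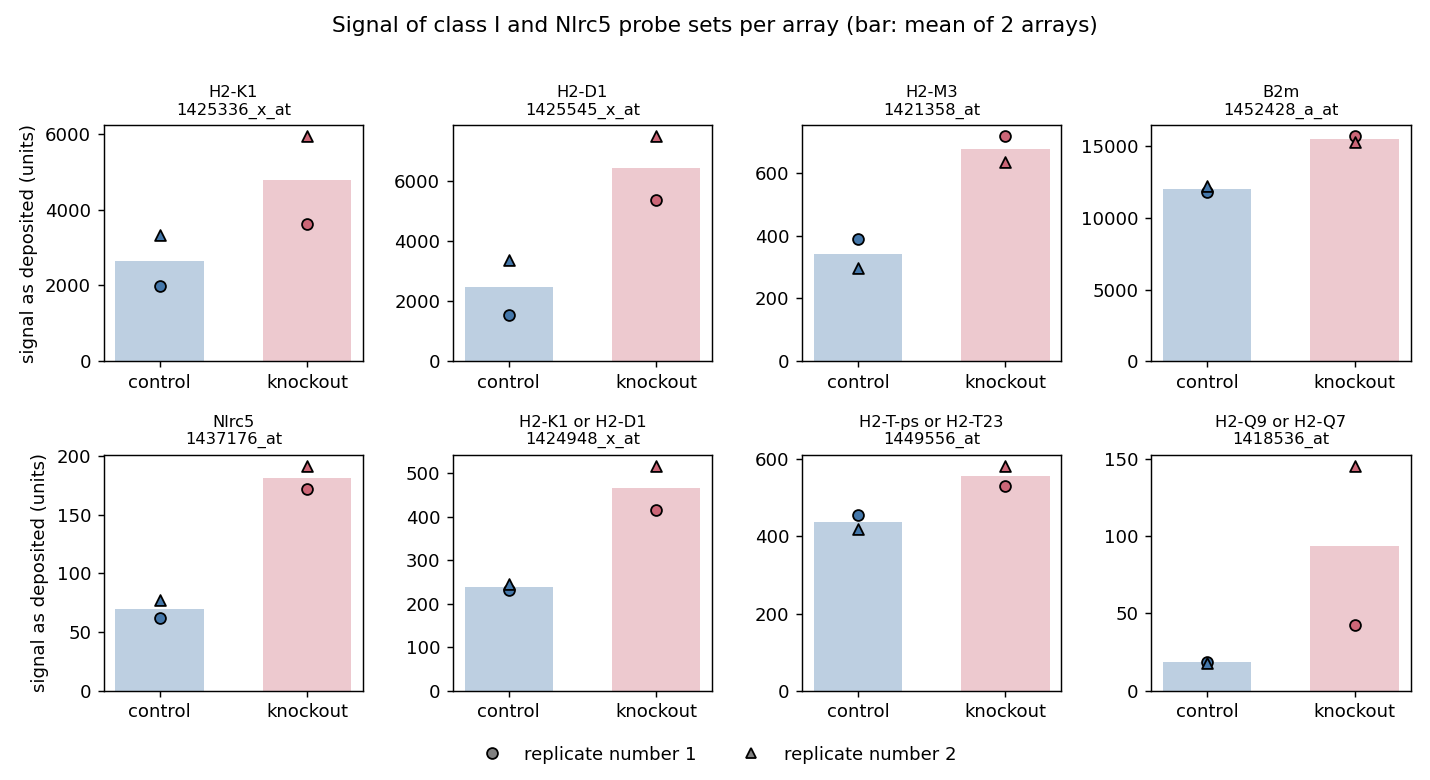
Deposited signal per array in signal units (y axis, from 0) for the brightest probe set of each member gene and for a probe set shared by H2-K1 and H2-D1, in control and knockout. Bars are means of 2 arrays, circles are replicate number 1 and triangles number 2; in every panel both knockout points lie above both control points.

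H2-D1, the classical heavy chain gene at the D end of the complex, showed the largest difference among the brightest probe sets of the 5 members with a probe set of their own. Its brightest probe set (1425545_x_at) read 1549 and 3360 units with the vector and 5379 and 7485 with Cre. Both knockout arrays were above both controls, and control 2 was above control 1. The mean was 2.81-fold higher in the knockout (log2 difference 1.49 ± 0.36, 95% interval 0.61 to 2.37). Its limma adjusted p was 0.673 unpaired and 0.000648 paired, so it rose in the paired model. Within the replicate numbers the difference was 1.88 in number 1 and 1.11 in number 2. Control 1 was low for this probe set: control 2 exceeded it by 1.09 on the log2 scale, against 0.33 between the knockouts. The unpaired difference was 0.96 without control 1 and 2.02 without control 2, and in the latter case it passed (limma adjusted p = 0.0388).

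The other H2-D1 probe sets divided into a bright and a dim class. Probe set 1451784_x_at read 1506 and 2689 units with the vector and 5086 and 6728 with Cre, and its difference was 1.55 ± 0.30. Probe set 1451683_x_at read 381 and 338 units with the vector and 1654 and 1194 with Cre. There the controls lay close together, while knockout 2 minus knockout 1 was -0.45 on the log2 scale. The difference of 1.94 ± 0.26 (3.84-fold) was the largest among the member probe sets tested. Its limma adjusted p of 0.219 was also the lowest of the 14 without the pairing, and it was 0.00026 in the paired model. Probe set 1426324_at, which alone of these 4 has no suffix for cross-matching probes, read 208 and 307 units with the vector and 509.5 and 937 with Cre. Its difference of 1.38 ± 0.42 is close to the others. The paired model called all 4 higher (limma adjusted p up to 0.00256). The remaining 5 H2-D1 probe sets lay below the level filter and read between 1.5 and 56.8 units on every array. Their differences ran from -0.03 to 0.18 and were not tested, so the gene's value depends on which probe sets represent it: the mean over all 9 gave 0.74.

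H2-K1, the classical heavy chain gene at the K end, read 1974 and 3321 units with the vector and 3622 and 5933 with Cre on its brightest probe set (1425336_x_at). Knockout 1 lay only a little above control 2, and within each group number 2 was brighter than number 1. The mean was 1.81-fold higher in the knockout, a log2 difference of 0.85 ± 0.31 (95% interval 0.10 to 1.61). The limma adjusted p was 0.999 unpaired and 0.00287 paired, and the probe set rose in the paired model. Within numbers 1 and 2 the differences were 0.91 and 0.80, closer together than for H2-D1. Without control 1 the unpaired difference was 0.51, without knockout 2 it was 0.55, and without control 2 it was 1.20.

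The 3 other H2-K1 probe sets differed in size. Probe set 1451931_x_at read 1215 and 1933 units with the vector and 3634 and 5434 with Cre, a difference of 1.54 ± 0.29 (2.92-fold; limma adjusted p = 0.417 unpaired and 0.000133 paired). That is as large as for the bright H2-D1 probe sets. Probe set 1427746_x_at read 398 and 603 units with the vector and 604 and 2856 with Cre. Here knockout 2 stood far above the other 3 arrays, and after normalization knockout 1 lay below control 2, so the groups overlapped. Its difference was 0.62 within number 1 and 2.14 within number 2, with a mean of 1.38 ± 0.70, and it passed in the paired model (limma adjusted p = 0.0244). Probe set 1450534_x_at, the dimmest of the 4, read 63.8 and 59.8 units with the vector and 141 and 76.7 with Cre. Its difference of 0.55 ± 0.30 passed in neither model (limma adjusted p = 0.999 unpaired and 0.385 paired). All 4 carry the suffix that marks probes able to match other transcripts, so how much of each signal comes from H2-K1 alone is not known.

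**Figure D3:**
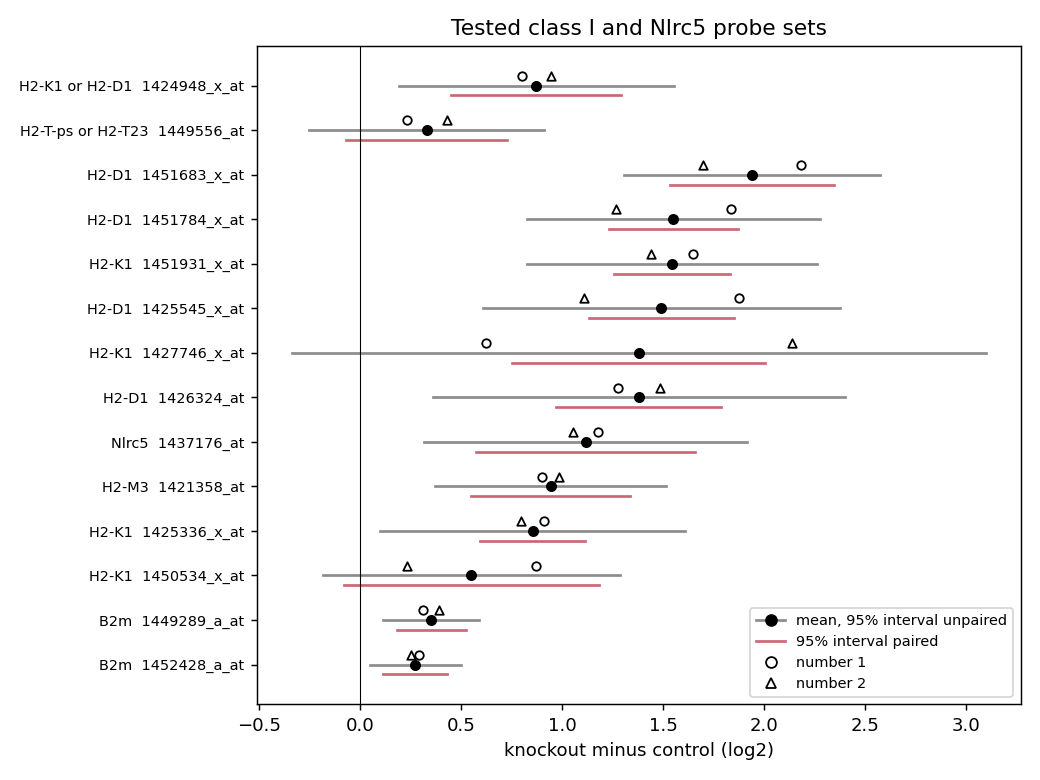
Knockout minus control difference on the log2(signal + 16) scale (x axis) for the 14 tested probe sets, shared ones at the top. Filled points are means with the 95% interval of the unpaired model in grey and of the paired model in red, open circles are number 1 and open triangles number 2; B2m has the narrowest intervals, and H2-K1 1427746_x_at has the widest unpaired interval and the largest gap between the numbers.

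H2-M3, whose product presents formylated peptides, read 389 and 297 units with the vector and 716 and 634 with Cre. The groups did not overlap, and number 2 was slightly lower than number 1 in both. The mean was 1.92-fold higher in the knockout, with a log2 difference of 0.94 ± 0.23 (95% interval 0.37 to 1.51) and of 0.90 and 0.98 within numbers 1 and 2. The limma adjusted p was 0.68 unpaired and 0.017 paired, so H2-M3 rose in the paired model. Leaving out single arrays moved the difference little, between 0.84 and 1.04. Its 1 probe set carries no suffix for cross-matching probes.

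H2-T23 encodes Qa-1, and both of its probe sets also name the pseudogene H2-T-ps. The brighter one (1449556_at) read 456 and 420 units with the vector and 531 and 583 with Cre. The knockouts were above the controls, but by little: the difference was 0.33 ± 0.24 (95% interval -0.25 to 0.91) and passed in neither model (limma adjusted p = 0.999 unpaired and 0.411 paired). Without knockout 2 it was 0.21, and without knockout 1 it was 0.47. The dimmer one (1419658_at) read 24.7 and 18.2 units with the vector and 68 and 63.6 with Cre. It lay below the level filter, and its untested difference of 1.02 was 0.81 within number 1 and 1.22 within number 2. The probe sets of this gene thus gave differences of unlike size in the same direction.

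H2-Q7, which encodes a Qa-2 molecule, is measured only by a probe set that also names H2-Q9 (1418536_at). It read 18.8 and 17.9 units with the vector and 42.2 and 145 with Cre. The controls lay close together and the knockouts far apart, with a difference of 0.51 within number 1 and 2.20 within number 2. The probe set lay below the level filter and was not tested. Its mean difference of 1.35 became 0.43 without knockout 2 and 2.31 without knockout 1. With a pseudocount of 1 it was 1.80, and with 64 it was 0.80.

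The remaining shared probe sets could not be assigned to 1 member. The one that names H2-K1 and H2-D1 (1424948_x_at) read 232 and 246 units with the vector and 416 and 516 with Cre, a difference of 0.87 ± 0.28 that rose in the paired model (limma adjusted p = 0.937 unpaired and 0.0339 paired). The one that names H2-Q5 and H2-K1 (1451593_at) read 102 and 44.3 units with the vector and 120.5 and 16.6 with Cre. It overlapped between the groups and went in opposite directions, by 0.12 within number 1 and -0.98 within number 2. The one that names Gm38417, H2-Q2 and H2-D1 (1422348_at) lay between 10.3 and 30.7 units on all arrays.

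B2m, the light chain gene common to these molecules, read 11839 and 12273 units with the vector and 15700 and 15279 with Cre on its brightest probe set (1452428_a_at). The arrays of each group were close together, and the step between the groups was small. The mean was 1.21-fold higher in the knockout, a log2 difference of 0.27 ± 0.09 (95% interval 0.05 to 0.50), with 0.29 and 0.25 within numbers 1 and 2. Its limma adjusted p was 0.999 unpaired and 0.0723 paired, so this probe set passed in neither model. The second probe set (1449289_a_at) read 9870 and 10019 units with the vector and 13009 and 13532 with Cre. It differed by 0.35 ± 0.10 and rose in the paired model (limma adjusted p = 0.779 unpaired and 0.0336 paired). Both B2m probe sets were among the brightest 1% of the array, and quantile normalization reduced the first one's difference from 0.36 on the deposited scaling. In both numbers the B2m differences were smaller than those of the bright H2-D1 and H2-K1 probe sets; the gap was not tested.

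Nlrc5, the regulator, was dim but lay above the filter. Its probe set (1437176_at) read 61.9 and 77.5 units with the vector and 172 and 192 with Cre. Both knockout arrays lay well above both controls, and number 2 was a little above number 1 in each group. After normalization the mean was 2.17-fold higher in the knockout, a log2 difference of 1.12 ± 0.33 (95% interval 0.32 to 1.91). Within numbers 1 and 2 it was 1.18 and 1.06. The limma adjusted p was 0.863 unpaired and 0.0341 paired, so Nlrc5 rose in the paired model. The pseudocount moves the value of so dim a probe set: the difference was 1.27 with a pseudocount of 1 and 0.81 with 64.

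**Figure D4:**
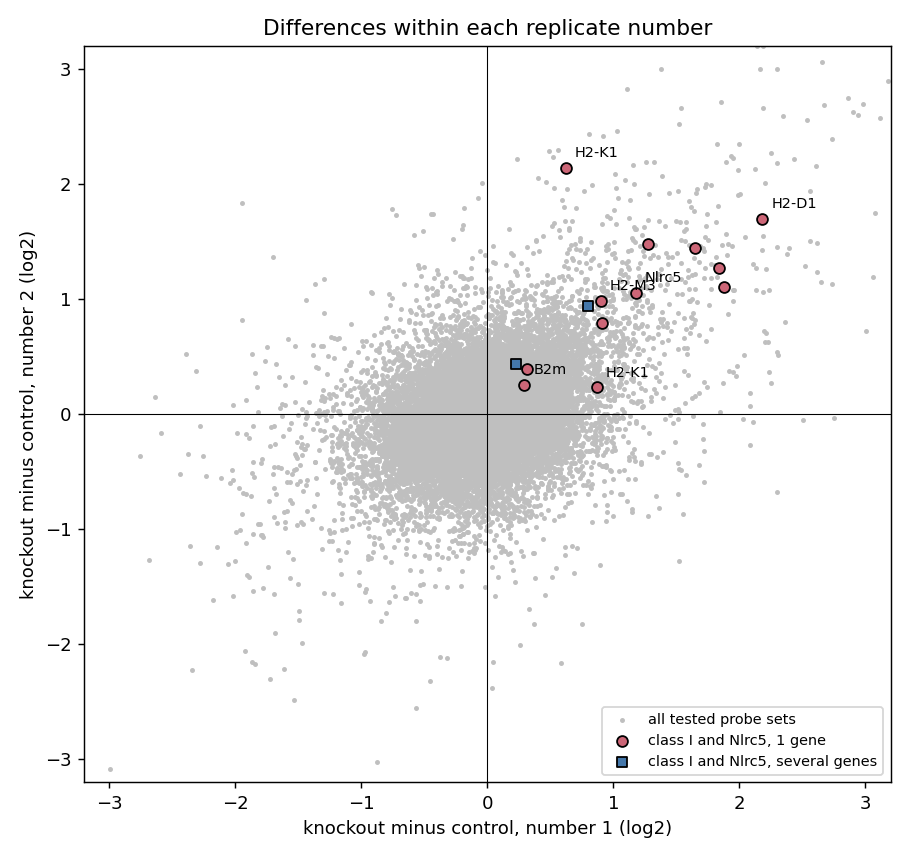
Knockout minus control difference (log2) within replicate number 1 (x axis) against number 2 (y axis). Grey points are all 22519 tested probe sets, except 28 beyond the axes, red circles are class I and Nlrc5 probe sets naming 1 gene and blue squares those naming several; all 14 lie right of and above 0, with an H2-K1 probe set at 0.62 and 2.14.

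H2-K1 and Nlrc5 also differed between the replicate numbers within a group, which the unpaired model counts as spread. Array 2 exceeded array 1 by 0.71 (controls) and 0.59 (knockouts) for H2-K1, and for Nlrc5 by 0.56 and 0.44. For H2-M3 the same differences were -0.16 and -0.08, and for B2m -0.05 and -0.09. The numbers also parted by sex-linked transcripts: a probe set of Xist read 11049 and 9810 units in control and knockout of number 1 and 41.8 and 58 in those of number 2.

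Genes whose values over the 4 arrays ran most like those of H2-D1, B2m and Nlrc5 were found by the distance between log2 values centred on each gene's mean, among 11079 tested genes. Nearest to H2-D1 were Gstm4, Chmp4c, Usp18, 1700009N14Rik and Ifih1, at distances of 0.23 to 0.36. Usp18, a protease that removes ISG15, read 124 and 263 units with the vector and 566 and 697.5 with Cre. Ifih1, the gene of the RNA sensor MDA5, read 113 and 179 against 337 and 502. Nearest to Nlrc5 were Rap1gap2, Lgals3bp, Plscr2, Lelp1 and Oasl1, at 0.02 to 0.26. Lelp1 read 25.1 and 36.8 units with the vector and 115 and 98.2 with Cre. Its controls lay below the filter level, so it was among the tested genes only because the knockouts were bright. Lgals3bp, which encodes a secreted galectin-binding protein, read 459 and 651 with the vector and 943 and 1375 with Cre. Nearest to B2m were Pdlim7, Tom1, Nbdy, Bckdk and Coa8, at 0.02 to 0.03. The likeness rests on 4 arrays and is a description.

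Other genes of the class I pathway are given by role, each by its brightest probe set, and no difference between the roles was tested. For peptide supply and loading, 12 of 13 listed genes had a probe set of their own, and all 12 were tested. All 12 differences were positive, as were 51.1% of those of all tested genes, with a median of 0.32 against 0.007 over all tested genes, and of 0.52 and 0.14 within numbers 1 and 2. Psmb8, an immunoproteasome subunit gene, read 62.6 and 98.2 units with the vector and 321 and 344.5 with Cre, and alone of the 12 rose in the paired model, where 3.25% of all tested genes rose (1.79 ± 0.35; limma adjusted p = 0.424 unpaired and 0.00205 paired). Tap1, a subunit of the transporter that brings peptides to class I, differed by 0.81 ± 0.31, Psmb9 by 0.73 ± 0.51 and Tap2 by 0.35 ± 0.26, and these did not pass. The mean of Psmb9 over the controls, 6.09 on the log2 scale, lay below the filter level. It was tested only because the knockouts were bright, so the count and median over the 12 are descriptions. The general chaperone genes Calr and Canx both differed by 0.03.

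Of 17 listed regulators of class I transcription other than Nlrc5, 14 had a probe set of their own and 12 were tested. None of the 12 passed limma after adjustment in either model. At an unadjusted p under 0.05 there was 1 in the unpaired model and 2 in the paired one, against 5.07% and 18.4% of all tested genes. Their median difference was 0.11, and 0.009 and 0.22 within numbers 1 and 2, and 7 of the 12 were positive, near the share over all tested genes. Irf9, the DNA-binding subunit of the complex that type I interferon activates, differed by 0.86 ± 0.29 and read 221 and 265 units with the vector and 551 and 373.5 with Cre. Rfxank, which encodes a subunit of the complex that binds the X box, differed by 0.49 ± 0.25, Irf1 by 0.22 ± 0.24 and Creb1 by 0.19 ± 0.33. Rfx5 and Rfxap, the other subunits of that complex, differed by -0.14 ± 0.24 and 0.17 ± 0.35. The 4 interferon receptor genes had a median of -0.05, from -0.15 for Ifngr2 to 0.37 for Ifngr1, and 0 passed limma after adjustment or at an unadjusted p under 0.05, in either model. Ifnar1 differed by -0.10 ± 0.24 and Ifnar2 by -0.01 ± 0.21.

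**Figure D5:**
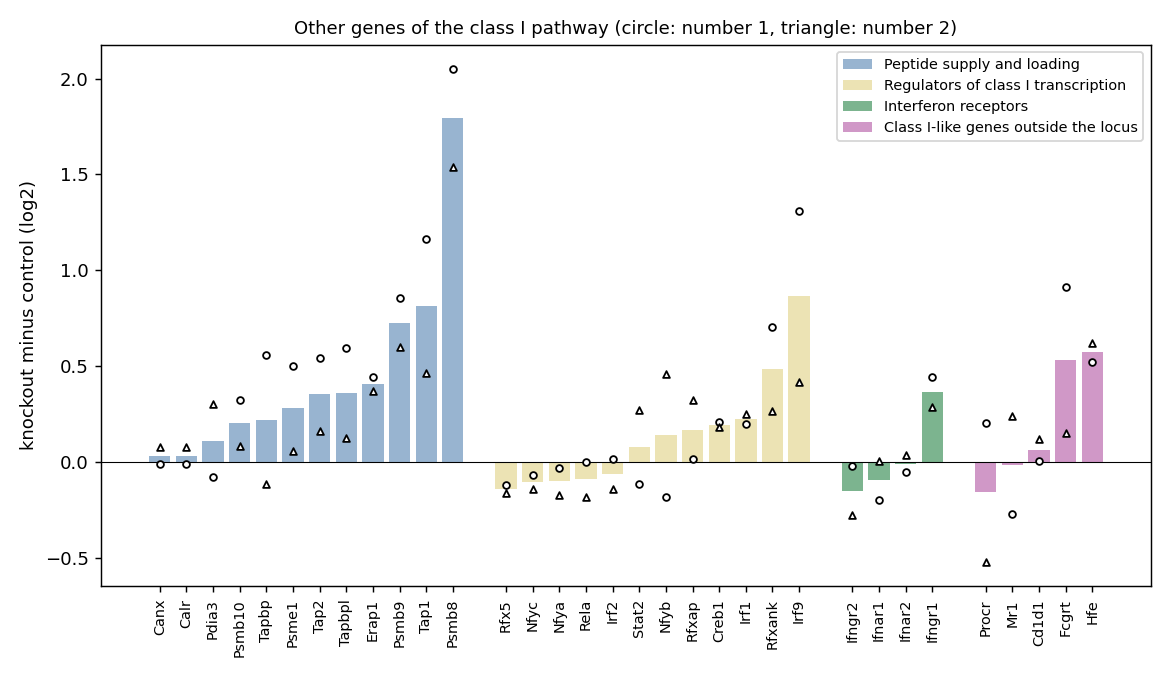
Knockout minus control difference (log2, y axis) of the tested genes of 4 class I pathway lists, ordered by difference within each list. Bars are means, circles number 1 and triangles number 2; all 12 peptide supply and loading genes have positive means with Psmb8 highest at 1.79, while regulators and interferon receptors lie on both sides of 0.

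Class I genes outside the 7 members were mostly dim or shared. Of 22 other heavy chain genes, 8 had a probe set of their own, and only that of H2-T3 passed the level filter, with a difference of -0.30 ± 0.31. A further 6 probe sets are shared among these genes, and their differences ran from -0.10 to 1.55. One for H2-Q6 and H2-Q8 (1431008_at) read 19.9 and 43.2 units with the vector and 126 and 138 with Cre, a difference of 1.55 ± 0.42. Its mean over the controls, 5.62 on the log2 scale, lay below the filter level, so it was tested only because the knockouts were bright, and no call is drawn from it. One for H2-T9, H2-T22 and H2-T10 (1449875_s_at) read 1755 and 1329 with the vector and 2038 and 2250 with Cre, a difference of 0.51 ± 0.23 that passed in neither model. The third tested one, for Gm38417, LOC547349 and H2-Bl, differed by 0.27 ± 0.29 and passed in neither. Its mean over the controls, 6.19 on the log2 scale, also lay below the filter level, so no call is drawn from it. The other 3 lay below the filter: a second one for H2-T9, H2-T22 and H2-T10 differed by -0.93 within number 1 and 1.24 within number 2, that for H2-Q6, H2-Q8 and H2-Q4 differed by 0.96 on average, and that for H2-T3 and H2-T18 by -0.10. Among class I-like genes outside the locus, 5 of 16 were tested, with a median of 0.06. None passed limma after adjustment in either model. At an unadjusted p under 0.05 there were 0 in the unpaired model and 2 in the paired one, against 5.07% and 18.4% of all tested genes. Those 2 were Hfe, the iron regulator that also binds beta-2 microglobulin (0.57 ± 0.29), and Fcgrt, the neonatal Fc receptor chain (0.53 ± 0.51).

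Markers of the labelled cell type were present. All 9 preadipocyte and mesenchymal markers with a probe set passed the filter, and none passed limma after adjustment in either model. Vim read 19767 and 19950 units with the vector and 21346 and 22803 with Cre. After normalization both knockouts lay below both controls for Dlk1, Pdgfra and Cd34, and the groups overlapped for the other 6. How many of all tested genes lay below in this way was not counted, so this is a description. Dlk1, a preadipocyte gene, read 5421 and 5238 units with the vector and 1689.7 and 4882 with Cre, a log2 difference of -0.92 ± 0.44 that lay mostly in number 1 (-1.72, against -0.11 in number 2). Pdgfra differed by -0.83 ± 0.42 and Cd34 by -0.44 ± 0.30. The other 6 of the 9 had positive differences, among them Eng at 0.44 ± 0.31 and Pdgfrb at 0.40 ± 0.27, and the median of the list was 0.05. The part of these differences in those of the class I genes was not tested. Other cell types that carry much class I were at low signal. Of 8 macrophage and leukocyte markers 6 lay below the filter, and the 8 summed to 335 and 473 units with the vector and 555 and 511 with Cre. The 2 tested ones, the macrophage genes Csf1r and Cd68, differed by 0.36 ± 0.30 and 0.25 ± 0.38 and passed in neither model. Csf1r read 143 and 163 units with the vector and 194 and 222 with Cre. Lyz2, the macrophage lysozyme gene, read 7.1 and 18.5 with the vector and 65.8 and 11.6 with Cre, and Ptprc, the pan-leukocyte gene, at most 11.9 with the vector and at most 4.5 with Cre. Of 7 class II and antigen presentation markers 5 lay below it, at a sum of 290 and 211 against 414 and 259. Of 4 T and natural killer cell markers 3 lay below it, at a sum of 211 and 136.5 against 286 and 93.8. All 5 endothelial markers lay below it, at 138 and 79.8 against 325 and 155.5, and 3 of 4 mature adipocyte markers did, at 127 and 71.5 against 159 and 79.1. No marker was at 0 on all 4 arrays. The sums of all 5 lists were higher in the knockout in number 1, and those of 4, all but the T and natural killer cell list, in number 2. These are sums of deposited signals, without quantile normalization. The median signal of the arrays was also higher in the knockout, at 78 against 67.2 units in number 1 and 52.5 against 50.6 in number 2. The part of these cell types in the class I differences was not tested.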

How the data were processed

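Total RNA of 4 samples was measured on 1 array each. The authors deposited a signal intensity per probe set, made with MAS5 per the submitters' processing notes, with the version and settings not given in the sources used here. Each array's mean after trimming 2% from each end was 500, which shows a scaling to 1 target value. The 64 Affymetrix control probe sets were left out. Of the rest, 34945 carried 1 gene symbol in the platform annotation, 932 several and 9160 none, and 34741 matched RefSeq (GRCm38.p6) by gene ID.

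On the log2 scale array medians lay up to 0.50 apart, so intensities were quantile normalized and taken as log2(signal + 16). Probe sets at or above the 50th percentile of mean level were tested in limma 3.58.1 under R 4.3.3 (lmFit, then eBayes with its trend option), with Benjamini-Hochberg adjustment over 22519 probe sets and a threshold of 0.05. The unpaired model was the planned one and has 2 residual degrees of freedom, beside 4.1 prior ones. For the paired model these are 1 and 9.8. With 2 arrays per group the smallest two-sided p of an exact permutation test is 0.333.

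Across tested probe sets, which are not independent, deviations from the group mean correlated at 0.603 between arrays of 1 number, and sex-linked transcripts parted the numbers. For the latter reason same-numbered arrays were treated as pairs. The fit was tested on simulated data.

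Members, lists, tests and alternatives were chosen with earlier results of these data known. The brightest probe set naming 1 gene stands for that gene. All member probe sets are given. Of each other list, counts and up to 4 genes with the smallest p are named, with the 5 nearest genes by distance for 3 members. Calr, Canx, Rfx5, Rfxap, the shared probe sets of other class I genes and single cell type markers were chosen after their values were seen. No probe set names H2-T23 or H2-Q7 alone, so shared probe sets stand in for the planned ones.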

Additional observations from a re-analysis of the deposited data

How the results depend on the processing

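Over 92 values of the 7 member genes under the alternatives, chosen with earlier results known, the difference stayed positive in all 92. The filter, the intensity trend, a robust variance estimate and the replicate block leave the difference itself unchanged, so those values could not change sign. For H2-M3 and Nlrc5 the probe set without a suffix is the main one, so that value could not move either. The count of 92 is thus a description. With the replicate number as a block, H2-K1 (0.85), H2-D1 (1.49), H2-M3 (0.94) and Nlrc5 (1.12) passed, and B2m and the shared H2-T23 probe set did not. Leaving out single arrays gave H2-D1 differences of 0.96 to 2.02, the highest of which, without control 2, also passed. The count of all probe sets called, 2 in the unpaired model, was 708 with the replicate block, 16 with median centring (14 higher and 2 lower, against 2 and 0 in the unpaired model), 1 with a pseudocount of 1, 1 with the 75th percentile filter, and 5 to 29 with single arrays left out. It was 0 in limma without the filter, with 2127 probe sets at an unadjusted p under 0.05, and 0 without the intensity trend, with 1020; the cause was not tested. Median centring moved the median difference of all tested probe sets to -0.11. Nlrc5 and the shared H2-Q7 probe set could not be tested with the 75th percentile filter, H2-K1 and B2m have no probe set without a suffix, and the shared H2-Q7 probe set was tested only without a filter (limma adjusted p = 0.999). With 1 array left out, the lone array of its group is assumed to vary like the other group, and the replicate numbers are unbalanced. The replicate block changed no other call among the genes named for their p, apart from those stated beside them. Signals below the level filter limit what can be said of the dim probe sets.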
